A study of Mus musculus with 12 samples.

Results

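For each gene, the reads that fell in its exons were set against the reads that fell in its introns, in wild-type mouse embryonic stem cells (ESCs) only. The genes were those with at least 10 normalised reads in the exonic and in the intronic value of both wild-type lines, which 9837 of the 18412 genes in the tables met. Both lines grew on gelatin-coated dishes with serum and the cytokine LIF, which keeps ESCs undifferentiated, and neither carries a knockout. One line, TFC, had served as the control of ESCs lacking Dicer1, and the other, V6.5, as the control of ESCs lacking Dgcr8. The series holds 12 libraries of polyadenylated RNA, 3 of each wild-type line and 3 of each knockout line, and the 6 knockout libraries were not used here. The question was which genes of a stem cell have much mature RNA for the precursor RNA present, which have little, and whether the lines give the same answer.

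A gene is copied into a precursor RNA that still holds its introns, and splicing removes these, usually while the RNA is being made. Reads in exons come mostly from finished messenger RNA, whose amount depends on synthesis and on decay, and reads in introns come from RNA that has not yet been spliced or whose introns were kept. A messenger that lasts long therefore tends to have many exonic reads for each intronic one, whereas unstable messengers and those with slow or withheld splicing have few. Some polyadenylated transcripts stay in the nucleus with an intron that is spliced late or not at all, called a detained intron, which is well known for genes of the splicing machinery itself.

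Introns are longer than exons, so levels were compared between genes per kilobase (kb). The ratio per kb is exonic reads per kb of exon over intronic reads per kb of intron, after adding 1 to both read values. The relative ratio is its log2 minus that of the median gene, so that 0 is the median gene, 1 is 2-fold above it and negative values are below it. The ratio without length leaves the lengths out and is centred likewise. The authors deposited means over the 3 libraries of a line, and each library's own reads were recovered from those means, for all but 139 of the 9837 genes. The libraries of a line are called A, B and C here, because the recovered values carry no replicate number. A is the library whose exonic values correlated least, on average, with the others of its line, and B has the larger scaling factor of the others.

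Recovered depth was 5701591 to 30087687 exonic reads and 559057 to 5579938 intronic reads per library. The introns held 14.3 to 15.6% of the reads in TFC and 8.93 to 12.3% in V6.5. TFC library B stood apart: of the genes with a mean of at least 50 in TFC, 6.02% were at 0 there in exons and 7.14% in introns, where no other wild-type library passed 1.12%. The A libraries are by the naming rule the least like the others of their line in exons. In TFC that choice was close, at a mean r of 0.766 against 0.772 for TFC C. In the relative ratio, TFC A and V6.5 A were more like each other (Pearson's r of 0.861 across 9698 genes) than any pair of libraries within a line was (0.538 to 0.773). The values of single libraries are therefore given beside the results. All 8 markers of pluripotent cells were present in both lines, with a median of 8028 exonic reads per kb in TFC and 3534 in V6.5. Of the markers of other cell types, Tagln (2538 exonic reads per kb) and Krt18 (3720) were prominent in V6.5 and low in TFC (summed fibroblast markers 295 against 4087 in V6.5, summed trophectoderm markers 335 against 6721). Mesoderm markers summed to 44.2 in TFC and 1105 in V6.5, with Brachyury (the T gene) the highest there at 705 per kb. Neural markers summed to 1009 in TFC, with Tubb3 the highest at 705, and to 1168 in V6.5. Primitive endoderm markers summed to 138 and 190. These levels are scaled within each line's own tables, and the part of such cells in the line differences was not tested. In RNA from bulk cells, fewer cells that use a gene and less RNA per cell cannot be told apart.

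The median gene had 39.2 times as many exonic as intronic reads per kb in TFC and 47.8 times as many in V6.5. Without length the medians were 5.11-fold and 6.21-fold. Genes differed widely: the span from the 10th to the 90th percentile was 26.4-fold in TFC and 26.2-fold in V6.5. Intronic reads outnumbered exonic reads for 883 genes (8.98%) in TFC and for 635 (6.46%) in V6.5, although per kb the introns were the more densely covered for only 37 and 15 genes.

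The lines ranked the genes alike. Across the 9837 genes the relative ratios of TFC and V6.5 had a Pearson's r of 0.916 and a Spearman's rho of 0.915, as a description over genes that are not independent of each other. Of all genes, 8335 (84.7%) lay within 1 log2 unit of the same value in both lines, and 184 (1.87%) differed by more than 2. Of the 984 genes in the highest decile of TFC, 71.4% were also in the highest decile of V6.5, and for the lowest decile the share was 73.9%. The likeness was lowest without TFC A, at an r of 0.809, and was 0.818 without both A libraries. Leaving out any 1 other library gave 0.877 (V6.5 A) to 0.918 (TFC B).

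**Figure D1:**
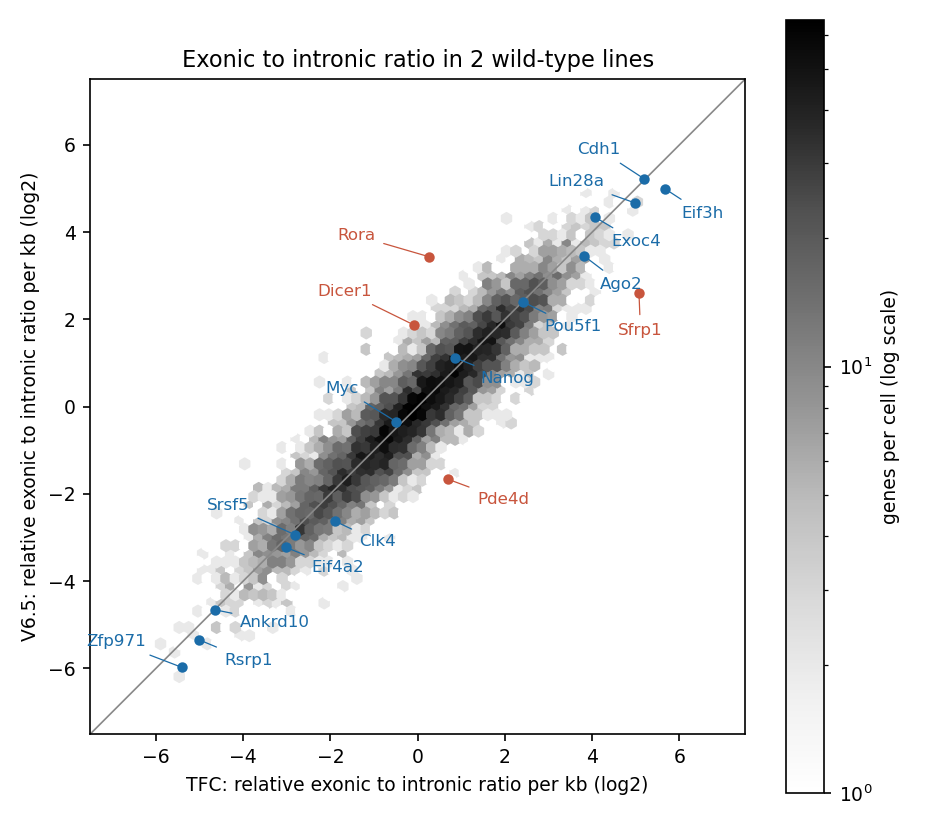
Relative exonic to intronic ratio per kb (log2, 0 = median gene) of each of 9837 genes in TFC (horizontal axis) and V6.5 (vertical axis), from the group means; grey cells hold genes, darker where there are more, and the line marks equal values. Blue points are named genes close to the line, from Zfp971 and Rsrp1 at the low end to Cdh1 and Eif3h at the high end, and red points are 4 genes that lay far from it.

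To ask which genes stood apart from the median gene by more than the spread between libraries, limma was fitted to the 12 columns of recovered values (exonic and intronic, 3 libraries of each line) and tested against a difference of 1 log2 unit. Nothing in the labels says that the libraries of a line came from separate cultures, so each p-value reflects no more than how these libraries vary, which could be technical. At a Benjamini-Hochberg adjusted p under 0.05, 644 of 9698 tested genes had a high ratio in TFC (6.64%) and 578 a low one (5.96%). In V6.5 the counts were 670 (6.91%) and 475 (4.9%). A high ratio in both lines was called for 467 genes (4.82%) and a low ratio in both for 369 (3.8%), and none was high in one line and low in the other. Of the genes called high in TFC, 72.5% were called high in V6.5, and of those called low, 63.8% were called low. Leaving out a B or C library lowered these counts most. Without TFC C, 305 high and 219 low ratios were called in TFC, and without TFC B 412 and 238, whereas without TFC A the counts were 695 and 580. In V6.5 they were 292 and 149 without V6.5 B, 322 and 171 without V6.5 C, and 545 and 347 without V6.5 A.

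The highest ratios among well-covered genes, those with at least 100 in every value, belonged to Lars2, Eif3h, Cdh1, Cct6a, Dstn, Ywhae, Klhl13, Chchd3, Fto and Adk. They include Cdh1, E-cadherin, the adhesion molecule that holds ESC colonies together. Cdh1 (ENSMUSG00000000303.12, chr8:106603351-106670246, plus strand, mm10) had 11648, 14514 and 11952 normalised exonic reads in TFC A, B and C, against 159, 64.5 and 148 intronic reads over 62166 bases of intron. In V6.5 it had 12922, 22210 and 25662 exonic and 136, 217 and 122 intronic reads. All 6 libraries thus had far more exonic than intronic reads of this gene, and per kb the ratio of the means was 1427-fold in TFC and 1784-fold in V6.5. Its relative ratio was 5.16 in TFC (SE 0.37, adjusted p 1.12e-05 in limma's test against 1 log2 unit) and 5.19 in V6.5 (SE 0.37, adjusted p 7.77e-06).

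Eif3h, a subunit of the initiation factor that prepares the small ribosomal subunit, gave a relative ratio of 5.94 in TFC and 5.09 in V6.5 (SE 0.59). Its intronic reads varied more than those of Cdh1, at 245, 42.3 and 334 in TFC and 267, 138 and 99.8 in V6.5, with the lowest value in TFC B. Dstn, an actin-severing protein, reached 4.71 and 5.05. Klhl13, an adaptor of a ubiquitin ligase, reached 4.82 and 4.74. Chchd3 of the inner mitochondrial membrane, the RNA demethylase gene Fto and the adenosine kinase gene Adk are long genes, with 266354, 351191 and 393824 bases of intron. Their high ratio was one of density: without length, Chchd3 in V6.5 (-0.092) and Adk in both lines (-0.10 in TFC and -0.063 in V6.5) lay just below the median gene. All 7 of these genes were called high in both lines. Lars2, Cct6a and Ywhae were not tested, since their library values could not be recovered, and their ratios are those of the group means. Genes with many processed copies in the genome, among them Ywhae, may share exonic reads with those copies.

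The lowest ratios among well-covered genes were those of Zfp971, Rrnad1, Zfp865, Ssh2, Ankrd16, Rsrp1, Rbm15, Cyhr1, Krba1 and Ankrd10. In these genes a kb of intron held about as many reads as a kb of exon. Ankrd10, an ankyrin-repeat gene (ENSMUSG00000031508.14, chr8:11611583-11635757, minus strand, mm10), had 4214, 3030 and 3168 exonic reads in TFC A, B and C and 8085, 11172 and 9246 intronic reads. In V6.5 the exonic reads were 2552, 1598.5 and 1913 and the intronic reads 4013, 4614 and 5134. Every library held more intronic than exonic reads, with no overlap between the ranges, and the relative ratio was -4.76 in TFC and -4.70 in V6.5 (SE 0.27, adjusted p 3.2e-06 and 3.33e-06 in limma's test).

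Rsrp1, which encodes an arginine- and serine-rich protein (ENSMUSG00000037266.18, chr4:134923592-134927671, plus strand), had 2766, 2374 and 1687 exonic and 2927, 3566 and 2441 intronic reads in TFC. V6.5 gave 1358, 544 and 1516 exonic and 1558, 1643 and 1424 intronic reads. Exonic and intronic values overlapped in both lines, with the higher mean in the introns, and the relative ratio was -5.14 and -5.50 (SE 0.36, both called). Rbm15 encodes an RNA-binding protein that recruits the machinery for RNA methylation, and GENCODE gives its main transcript 1 intron. It had 1262, 1413 and 1310 exonic and 681, 1311 and 1568 intronic reads in TFC, and 1008, 1103 and 805 exonic and 625, 704 and 1244 intronic reads in V6.5. Exonic and intronic reads of Rbm15 overlapped in both lines, and its relative ratio was -4.91 and -5.12. Ankrd16, which encodes a protein that prevents errors in loading of alanine onto tRNA, had 322 exonic and 1353 intronic reads in the mean of TFC, and 206 and 648 in that of V6.5.

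Of the 10 genes, 9 were called low in both lines, and Ssh2, a phosphatase gene that acts on the actin regulator cofilin, was not tested. Ssh2 had 1094.5 exonic and 30274 intronic reads in the mean of TFC and 772 and 14724 in that of V6.5. Krba1 was no longer called in V6.5 without library V6.5 B (adjusted p 0.14) or V6.5 C (0.176). The tables sum reads over all introns of a gene, so that even coverage, 1 kept intron, an exon outside the gene model and a transcript of another gene inside the intron cannot be told apart. Annotated genes on the same strand overlapped Zfp865 (Ccdc106 among them) and Ssh2. For Zfp971 the lengths in the tables added up to 1.17 times the annotated span, so its gene model was another one, and members of zinc finger families can share reads.

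**Figure D2:**
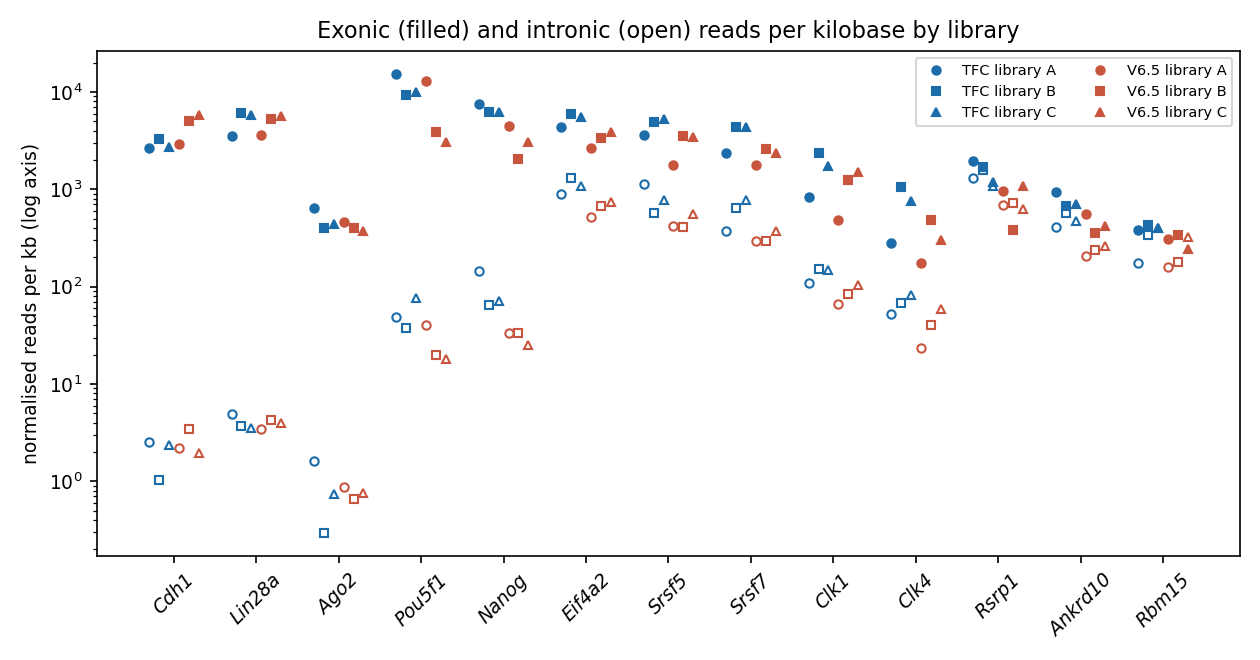
Normalised reads per kb (log axis) in exons (filled) and introns (open) for 13 named genes, in each of 3 libraries of TFC (blue) and V6.5 (red). In Cdh1, Lin28a and Ago2 the exonic points stood far above the intronic ones, whereas in Rsrp1, Ankrd10 and Rbm15 both kinds lay close together and partly overlapped.

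Regulators of splicing had low ratios per kb, and the core of the spliceosome did not. The list of serine- and arginine-rich (SR) proteins, the Clk kinases that phosphorylate them and the heterogeneous nuclear ribonucleoproteins (Hnrnp) had 60 measured genes with a median relative ratio of -0.93, where the median over all 9837 genes was 0.01. Of these genes 40 lay below the median gene in both lines. Against genes of the same decile of intronic length the list's median was -0.75, and without length it was -0.19, with 26 of 60 above the median gene. Among 47 tested, 11 were called low in both lines, against 3.8% of all genes, and 1 was called high, Ptbp3, against 4.82%. The 11 low genes were Srsf2, Srsf5, Srsf6, Srsf7, Srsf10, Tra2a, Hnrnpdl, Hnrnph3, Tia1, Tial1 and Luc7l, several of them picked out here by their calls. Core components of the spliceosome, by contrast, had a median of 0.96 over 40 genes. Of 38 tested, 6 were called high in both lines, against 4.82% of all genes, and 1 low, against 3.8%. That 1 gene was Prpf38b (-2.12 in TFC and -2.64 in V6.5), whose call in TFC was lost when any 1 library other than V6.5 C was left out (adjusted p 0.0538 to 0.136), and also in V6.5 without V6.5 B (0.0551).

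A second list held genes whose introns are known to be detained, together with genes of O-GlcNAc addition, and it shares members with the first. Its median, -1.59 over 27 genes, was the lowest of the 21 lists with members. Altogether 25 of its 27 genes lay below the median gene in both lines. Of 25 tested, 8 were called low in both, against 3.8% of all genes, and none high, against 4.82%. Over the 25 tested genes, the list's median was below 0 in all 6 libraries, at -1.99 to -1.59. Over all 27 it was -0.81 without length and -1.07 against genes of the same decile of intronic length. Ccnl2, a cyclin that associates with splicing factors, had the lowest ratio of the list, at -3.05 in TFC and -3.38 in V6.5 (SE 0.27). Among its members Mat2a, which makes the methyl donor S-adenosylmethionine, stood at the middle of the list with -1.46 and -1.92 (adjusted p 0.419 and 0.149, not called). Ogt, the enzyme of O-GlcNAc addition, had 4616 intronic reads in TFC A against 1128 and 1003 in B and C, and its relative ratio of -0.41 and -0.37 did not pass the test.

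The SR genes show the pattern in single libraries. Srsf5 (ENSMUSG00000021134.17, chr12:80945504-80950507, plus strand) had 5998, 8063 and 8641 exonic and 3623, 1839 and 2472 intronic reads in TFC, and 2917, 5784 and 5660 exonic and 1362, 1319 and 1778 intronic reads in V6.5. All exonic values were above all intronic values of the same line, yet per kb the surplus was only 5.56-fold and 6.25-fold, and the relative ratio was -2.90 and -3.01 (SE 0.33, both called). Srsf7 gave -2.76 and -2.80 and Srsf2 -2.39 and -2.28, and Srsf2 was not called in V6.5 without V6.5 B (adjusted p 0.0876). Srsf2 has short introns, 1255 bases in all, and without length it lay above the median gene, at 1.17 and 1.29. Hnrnpdl had the lowest ratio of the first list, -3.57 and -3.84.

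Clk1 and Clk4 encode kinases of the SR proteins, and both are textbook cases of transcripts held in the nucleus with 2 neighbouring introns unspliced. Clk1 had 1527, 4318 and 3203 exonic and 1088, 1522 and 1497 intronic reads in TFC, and 881, 2301 and 2754 exonic and 660, 850 and 1034 intronic reads in V6.5. Clk4 had 548, 2077 and 1494 exonic and 855, 1121 and 1339 intronic reads in TFC, and 343, 940 and 591 exonic and 388, 671 and 974 intronic reads in V6.5. In the A libraries of both lines the exonic reads of both genes were the lowest of the line. The relative ratios of Clk1 were -1.93 and -2.06 and were not called (adjusted p 0.126 and 0.0926). That of Clk4 was -2.20 in TFC, not called (0.0898), and -2.67 in V6.5, called at 0.0255 and lost without any 1 of the V6.5 libraries (0.0516 to 0.197).

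To show which introns are meant, the 5' borders of introns 3 and 4 of both genes are printed from GENCODE M21 transcripts that keep them, on mm10. Each line holds the last 10 bases of the exon and the first 20 of the intron, 5' to 3', with the GT that opens the intron in capitals.
Clk1 intron 3, chr1:58420212-58421082, minus strand: ttcacacgggGTatgagtgccttttaaacg
Clk4 intron 3, chr11:51272023-51273077, plus strand: gtcgcattcgGTatgagtggtttgttttta
Clk1 intron 4, chr1:58419734-58420120, minus strand: agtgcaagatGTatagaatatttttcaaca
Clk4 intron 4, chr11:51273169-51273559, plus strand: agagcaagatGTatagaatatttttcaaca
Rsrp1 intron 3, chr4:134925433-134926734, plus strand: aaaggtggagGTaagtgccttcaggaagct
The border of intron 4 was the same in Clk1 and Clk4 at 29 of 30 positions, all 20 intronic ones among them, and that of intron 3 at 17 of 30. At intron 3 the identity was 12 of 20 in the intron and 5 of 10 in the exon. The 3' borders were less alike for intron 4, with 19 of 30 positions the same for either intron and 10 of 20 of the intronic ones. Intron 3 of Rsrp1 makes up 1302 of the gene's 2251 intronic bases in the tables, and it too is kept whole in an annotated transcript. The values above are sums over all introns of each gene, so the reads in the introns shown were not resolved.

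Annotated intron retention did not separate high from low ratios in general. The 6323 genes with at least 1 GENCODE transcript of the retained-intron type had a median relative ratio of -0.04, and the 3308 without one had 0.09. Such transcripts were annotated for 67.9% of the genes in the lowest decile of the ratio and for 61.2% in the highest.

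Genes of the translation and protein-turnover machinery lay on the high side. Translation factors had a median relative ratio of 1.57, with 32 of 37 genes above the median gene. Over the 24 genes with library values, library medians were 1.26 to 1.61. Of 24 tested, 7 were called high in both lines, against 4.82% of all genes. Among them were Eif3h, the GTPase gene Eif5b and the release factor gene Etf1 (3.22 and 2.86 in the group means). The exception was Eif4a2, an RNA helicase of translation initiation whose introns hold 5 annotated snoRNA genes. Eif4a2 had 13745, 18790 and 17680 exonic and 2911, 4267 and 3517 intronic reads in TFC, and 8389, 10648 and 12314 exonic and 1688, 2212 and 2425 intronic reads in V6.5. It was abundant in every library, yet its relative ratio was -3.13 and -3.25 (SE 0.28, adjusted p 0.000163 and 8.79e-05), the lowest of the list. Without length it lay close to the median gene, at -0.12 and -0.32 in the group means.

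Subunits of the proteasome, the particle that degrades proteins, had a median of 1.12, with 26 of 31 genes above the median gene. Called high in both lines were 6 of 31, against 4.82% of all genes, and none was called low. Psma6 of its core ring had the highest ratio, 3.30 in TFC and 3.81 in V6.5, although the TFC call was lost without TFC C (adjusted p 0.0591). Enzymes of glycolysis had a median of 1.79 over 16 genes. Among 10 tested, Hk2 and Pgk1 were called high in both lines, against 4.82% of all genes.

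Ribosomal protein genes, which give some of the most abundant and stable messengers of any cell, were high in amount but less so per kb. The median of 77 genes was 0.74 per kb and 2.21 without length, and 52 and 75 of them lay above the median gene. Their exons carried a median of 15229 reads per kb in TFC and their introns 191, where the median of all genes was 263 and 7.21, so both densities were high. Of 57 tested, none was called in both lines with limma. Over the 57 tested genes alone, the list's median per kb differed between libraries, from -0.26 in V6.5 C to 1.12 in TFC A. Reads of these genes can also fall on processed copies elsewhere in the genome, and their ratios are uncertain.

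Mitochondrial ribosomal proteins lay lower, and below the median gene mainly in V6.5. Their median was -0.33 over 66 genes in the mean of both lines, -0.07 in TFC and -0.56 in V6.5. It was below 0 in all 6 libraries, at -0.24 to -0.01 in TFC and -0.76 to -0.38 in V6.5. Without length the median was 0.16, and against genes of the same decile of intronic length it was 0.75. Of 66 tested, 7 were called low in both lines, against 3.8% of all genes, namely Mrpl11, Mrpl21, Mrpl24, Mrpl37, Mrps10, Mrps11 and Mrps17. Mrps28 was called high in both, against 4.82% of all genes. Mrpl24 had 1960, 1966 and 1617 exonic and 696, 914 and 1196 intronic reads in TFC, and 1092, 699 and 792 exonic and 548, 555.5 and 576 intronic reads in V6.5. It spans few bases of intron, 2418 in all, and gave -3.05 and -3.66 (SE 0.28). Mrps28 has 120950 bases of intron and gave 4.35 and 5.0. Genes of the respiratory chain and ATP synthase had a median of 0.30 over 72 genes in the mean of both lines, with 38 above the median gene. In single lines the median was 0.15 in TFC and -0.04 in V6.5, and in single libraries -0.08 to 0.40. Against genes of the same decile of intronic length it was 0.98, where 62 of 72 lay above 0. Of 70 tested, 1 was called high in both lines (Atp5f1), against 4.82% of all genes, and 1 low (Uqcrq), against 3.8%. The calls of Uqcrq were lost without library B or C of the same line, at adjusted p 0.128 to 0.222 in limma's test.

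**Figure D3:**
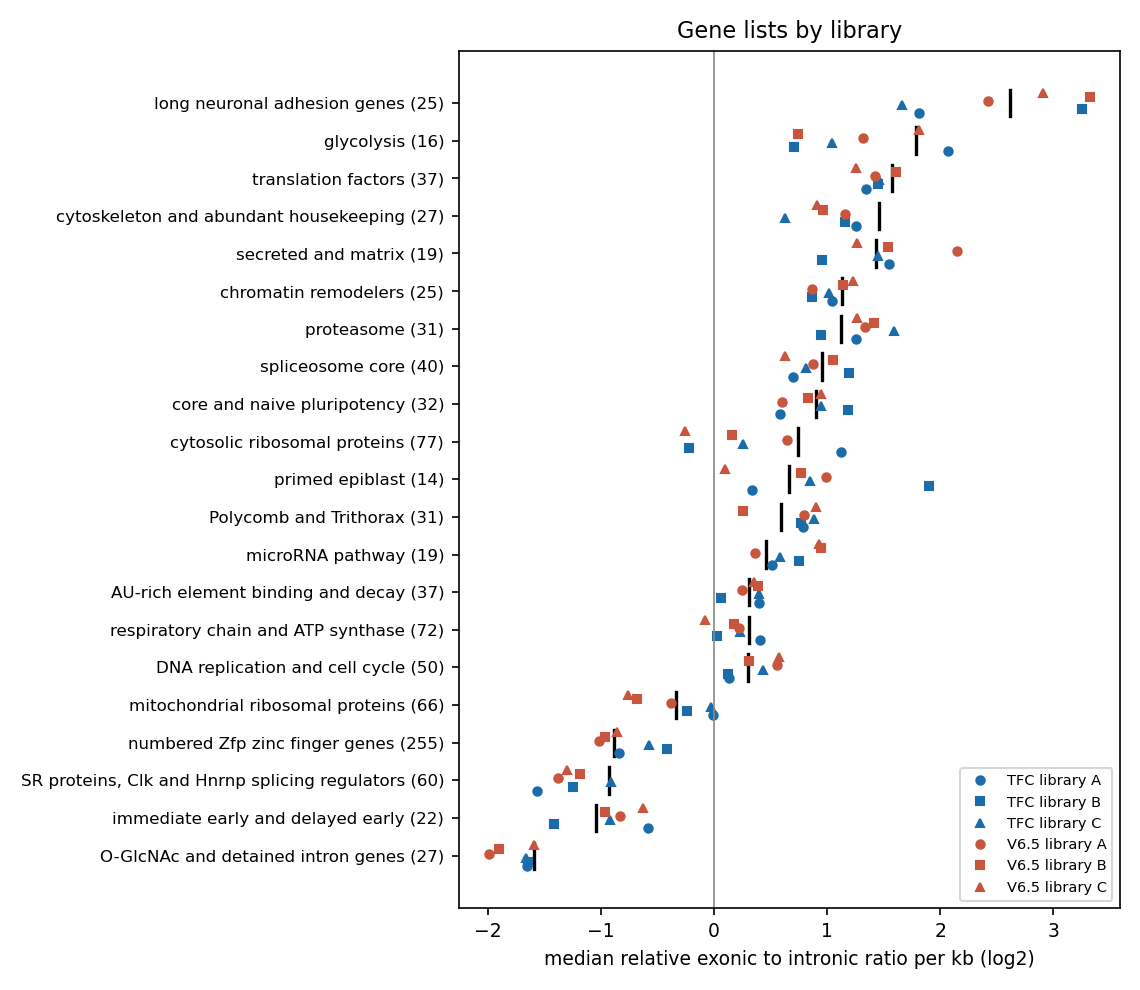
Median relative ratio per kb (log2, 0 = median gene) of each gene list in each library of TFC (blue) and V6.5 (red), with the number of genes in brackets. The black bar is the median from the group means. It also holds genes without library values, so points and bar can rest on different genes. The points rest on 57 of 77 cytosolic ribosomal, 24 of 37 translation factor and 47 of 60 SR, Clk and Hnrnp genes. For housekeeping they rest on 16 of 27 and for glycolysis on 10 of 16. Lists are ordered by the bar, from detained-intron genes at -1.59 to long neuronal genes at 2.62.

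Genes that mark the stem cell state lay above the median gene more often than below it, and few were called. Of 32 measured genes of core and naive pluripotency, 23 lay above the median gene in both lines. The list's median was 0.91, 1.79 without length and 1.30 against genes of the same decile of intronic length. Over the 28 tested genes it was 0.58 to 1.19 in single libraries. Called high in both lines were 4 of 28 tested, against 4.82% of all genes. They were the RNA-binding protein gene Lin28a, the transcription factor genes Tfcp2l1 and Nr5a2, and Jarid2, a partner of Polycomb. The last 3 were picked out here by their calls. None was called low.

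Lin28a, which blocks the maturation of let-7 microRNAs, had 12162, 21355 and 20105 exonic reads in TFC and 12625, 18142 and 19670 in V6.5. Its introns (chr4:134003330-134018841, minus strand, 11947 bases of intron in all) held 58.4, 44.5 and 41.9 reads in TFC and 41.5, 51.1 and 47.4 in V6.5. The intronic values of both lines overlapped and varied little, and the relative ratio was 4.83 and 4.62 (SE 0.30, adjusted p 5.15e-06 and 5.27e-06).

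Pou5f1, the central transcription factor of pluripotency, had 22230, 13343 and 14354 exonic and 156, 120.1 and 247 intronic reads in TFC. In V6.5 the exonic reads were 18637, 5659 and 4460 and the intronic reads 130.3, 63.4 and 57.4, with both values highest in library A. Its relative ratio, 2.33 and 2.17, did not pass the test (adjusted p 0.0633 and 0.102). Nanog, another factor of that network, was closer to the median gene, at 0.84 and 1.0. Its exonic reads were 17024, 14008 and 13879 in TFC and its intronic reads 699, 309 and 342. In V6.5 they were 9931, 4604 and 6897 and 160, 161 and 122. Esrrb, an orphan nuclear receptor, gave 3.13 in TFC, not called (0.0641), and 3.32 in V6.5, called at 0.048. That call was lost without TFC C, V6.5 B or V6.5 C (adjusted p 0.0748 to 0.172), and its V6.5 intronic reads were 897, 317 and 59.9.

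Regulators of chromatin were also above the median gene for the most part. Among chromatin remodelers 24 of 25 genes were, with a median of 1.13. Against genes of the same decile of intronic length the median was 0.51, with 17 of 25 above 0, and without length it was 0.78. Of 24 tested, 3 were called high in both lines, against 4.82% of all genes, namely Smarcc1, Chd7 and Chd9. Polycomb and Trithorax genes had a median of 0.59 over 31 genes. Of these 31, 4 were called high in both lines, against 4.82% of all genes, namely Jarid2, Kdm2b, Rybp and Kmt2c. Rybp, a subunit of a Polycomb complex, reached 4.16 and 3.95 (SE 0.36). Genes of DNA replication and the cell cycle had a median of 0.30 over 50 genes, of 1.48 without length (42 above) and of 1.08 against genes of the same decile of intronic length (39 above). Of 48 tested, 5 were called high in both lines, against 4.82% of all genes, namely Mcm6, Pola1, Rpa1, Ccnd3 and Cdk6. E2f1, a transcription factor that drives entry into S phase, had the lowest ratio (-3.29 in TFC, called, and -2.36 in V6.5, adjusted p 0.112 in limma's test). The E2f1 call was lost without TFC B (0.113) or TFC C (0.097).

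Of the genes that make and use microRNAs, 19 were measured, with a median of 0.46. Ago2, the slicing member of the Argonaute family, had 5131, 3243 and 3505 exonic reads in TFC and 3687, 3219 and 2971 in V6.5. Over 74932 bases of intron it had 122, 22.2 and 55.9 reads in TFC and 65.2, 49.5 and 57.4 in V6.5, and its relative ratio was 3.94 and 3.44 (SE 0.48, called in both lines). Drosha, the nuclease of the nuclear step, gave 1.47 and 1.43, and its partner Dgcr8 gave 0.50 and 0.55, neither called. Tarbp2, a partner of Dicer, had the lowest ratio, -3.13 in TFC (called) and -2.46 in V6.5 (adjusted p 0.125), and the call was lost without any 1 TFC library or V6.5 B (0.0507 to 0.0907).

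Immediate early genes, whose messengers decay fast, showed how much the length correction matters. Of 48 listed genes, 47 were in the tables and 22 passed the minimum, while 21 had too few intronic reads and 4 too few exonic reads in at least 1 line. Per kb their median was -1.05, with 18 of 22 below the median gene. Of these 22, 1 gene, Mcl1, was called low in both lines, against 3.8% of all genes. Without length the median was 2.41 and all 22 lay above the median gene, and against genes of the same decile of intronic length it was 0.46. Myc had 442, 768 and 1070.1 exonic and 15.7, 44.5 and 25.2 intronic reads in TFC, and 1287, 484 and 704 exonic and 11.8, 38.7 and 17.5 intronic reads in V6.5. Its relative ratio was -0.62 and -0.32, which did not pass the test. Genes of AU-rich element binding and messenger decay had a median of 0.30 over 37 genes. Of these 37, 3 were called high in both lines, against 4.82% of all genes. They were Cnot1, the scaffold of the deadenylase complex, the helicase gene Ddx6 and the nuclease gene Smg6. The V6.5 call of Ddx6 was lost without any 1 of the V6.5 libraries (adjusted p 0.0654 to 0.141 in limma's test).

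Long genes known from neurons had the highest median per kb of all lists, 2.62. In the mean of both lines 25 of 25 genes lay above the median gene, and 23 did so in each line. Cntnap2 (-0.85) and Sox6 (-0.70) lay below it in TFC, on 22.4 and 14.8 exonic reads. Of the 44 listed genes in the tables, 18 were left out for too few exonic reads in at least 1 line. All 25 were tested, and 8 were called high in both lines, against 4.82% of all genes. The same list had a median of -1.68 without length, because its median intronic length was 757252 bases, against 22793 for all genes, and it was 1.07 against genes of the same decile of length. Exoc4, a subunit of the exocyst that docks secretory vesicles, had 2613, 3005 and 2533 exonic and 819, 770 and 841 intronic reads in TFC, and 1757, 1609 and 1658 exonic and 409, 184 and 407 intronic reads in V6.5. Over its 719731 bases of intron these gave a relative ratio of 3.93 and 4.41 (SE 0.30), and -0.71 and -0.22 without length. Dmd, the dystrophin gene, was called high in both lines as well, with 2073 exonic and 487 intronic reads in the mean of TFC.

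Numbered zinc finger genes, most of which encode repressors bound to DNA, lay on the low side. The 255 measured genes of 347 in the tables had a median of -0.88 and 173 lay below the median gene. Another 77 had enough exonic reads but under 10 intronic reads in at least 1 line, and 15 had too few exonic reads. Ratios of these genes do not enter the median. Of 253 tested, 16 were called low in both lines, against 3.8% of all genes, and 4 high (Zfp407, Zfp462, Zfp609 and Zfp664), against 4.82%. Their median exonic level was 217 reads per kb in TFC, and their median was 0.10 without length and -0.32 against genes of the same decile of intronic length. Secreted and matrix proteins, translated at the endoplasmic reticulum, had a median of 1.43 over 19 genes, and 18 lay above the median gene. Of 18 tested, 3 were called high in both lines, against 4.82% of all genes, namely Lamc1 and Nid1 of the basement membrane and Sparc. Sparc had 45.2, 0 and 41.9 intronic reads in TFC, and its V6.5 call was lost without any 1 V6.5 library (adjusted p 0.0532 to 0.123).

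Across all genes, the ratio per kb was higher in each decile of longer introns. Its median went from -1.50 in the decile with the shortest introns (median 2498.5 bases) to 1.55 in the decile with the longest (188538 bases), while the ratio without length went the other way, from 0.97 to -0.71. Spearman's rho with intronic length was 0.47 in TFC and 0.51 in V6.5 per kb, and -0.22 and -0.18 without length. By exonic level per kb, the median per kb went from -1.39 in the lowest decile to 1.34 in the highest, and that without length from -1.98 to 1.81. Each relation shares its values with the ratio itself, since length and level are terms of it, and is given as a description. The lowest decile of the ratio had a median intronic length of 7374 bases and a median exonic level of 72.0 reads per kb, and the highest decile 65667 bases and 520.2 reads per kb.

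**Figure D4:**
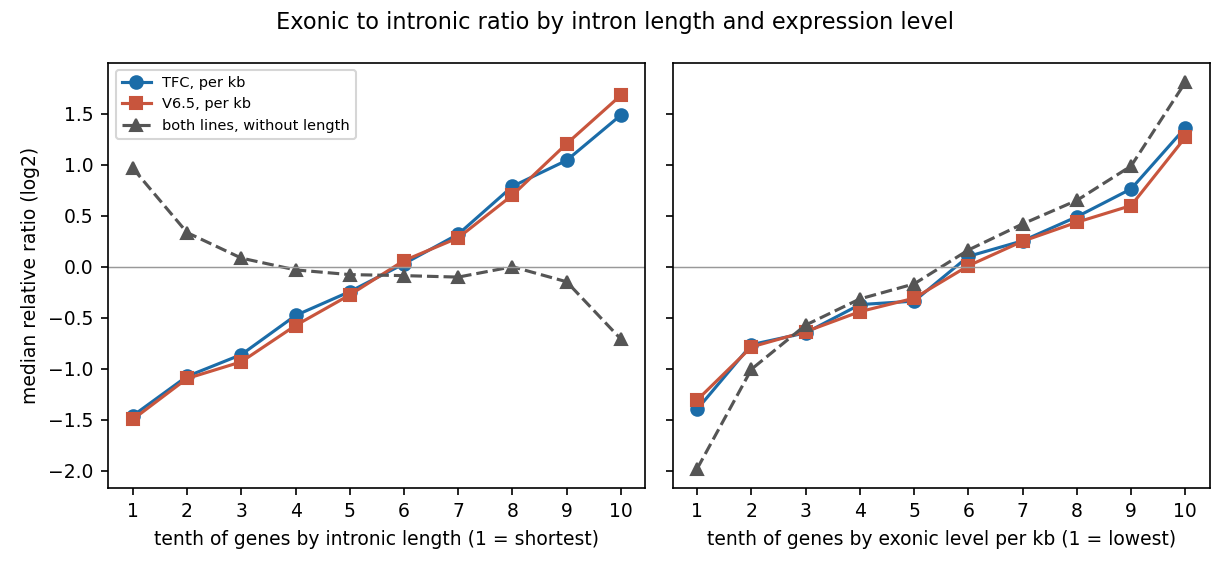
Median relative ratio (log2, 0 = median gene) in deciles of the 9837 genes by intronic length (left) and by exonic level per kb (right), per kb in TFC (blue) and V6.5 (red) and without length over both lines (grey, dashed). By intronic length the per-kb lines went from -1.46 (TFC) and -1.49 (V6.5) to 1.49 and 1.68, while the dashed line went from 0.97 to -0.71, and by exonic level all lines went up.

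Without length, the highest ratios among genes with at least 100 in every value were those of Eef1a1, Hsp90ab1, Hsp90aa1, Ncl and Tubb5, abundant messengers with short introns. Some genes with fewer intronic reads had higher ratios than Ncl and Tubb5, such as Actg1 and Actb. The lengths in the tables for Eef1a1 and Hsp90aa1 add up to 0.29 and 0.43 times the GENCODE span, so that their models leave out part of the annotated gene. The lowest among genes with at least 100 in every value were Ssh2, Pam, Zfp982, Mbd5 and Pde4d. Pam, an enzyme that amidates peptide hormones, had 180.3, 50 and 230.1 exonic and 1661, 9075 and 5727 intronic reads in TFC, and 102, 428 and 373 exonic and 1718, 1578 and 4229 intronic reads in V6.5. Every library held several times more intronic than exonic reads, and the relative ratio per kb was -4.47 in TFC (called; -3.15 without TFC B, adjusted p 0.0698) and -2.71 in V6.5 (adjusted p 0.1). Zfp982 is listed with lengths 16.0 times its annotated span, and its value cannot be placed on that gene model.

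No gene passed the test of a difference between the lines. With limma and the relative ratio per kb, 0 of 9698 genes were called higher and 0 lower in V6.5 at an adjusted p under 0.05, and 131 (1.35%) had an unadjusted p under 0.05. With limma-voom that number was 133, with exonic and intronic libraries taken as pairs 228 and with a term for the A libraries 276, again with 0 called. The 1.35% is below the share of 0.05 that p-values of unchanged genes would give, so the lack of calls does not show the lines to be equal. The median standard error of a line difference was 0.85 log2 units, so differences of 2-fold were not detectable for most genes with this fit and number of libraries. Each line also has tables of its own, so that line and table cannot be told apart.

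Dicer1, the nuclease that makes microRNAs, was not knocked out in either wild-type line but stood at different places in them. Its exonic reads (ENSMUSG00000041415.10, chr12:104687742-104751952, minus strand) were 2944, 3278 and 3496 in TFC and 3852, 4948 and 4732 in V6.5. Its intronic reads were 437, 591 and 418 in TFC and 207, 104 and 107 in V6.5. Exonic reads were lower and intronic reads higher in TFC in every library, and the ratio per kb was 36.7-fold in TFC and 175-fold in V6.5. These reads are scaled within each line's own tables. There the median of all genes was 7.21 intronic reads per kb in TFC and 4.54 in V6.5, and 263 and 196 exonic ones. How many of all genes had ranges that did not overlap between the lines was not counted. The relative ratio was -0.20 in TFC and 1.92 in V6.5, a difference of 2.09 (SE 0.43) with an unadjusted p of 0.000223 and an adjusted p of 0.999914 in limma's test. The high call in V6.5 (adjusted p 0.0397) was lost without TFC C, V6.5 B or V6.5 C (0.0697 to 0.313).

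Pde4d, a very long phosphodiesterase gene, showed the opposite. It had 658, 930.4 and 1076 exonic and 2177, 2682 and 2870.4 intronic reads in TFC, and 173, 337 and 551 exonic and 4661, 3647 and 4650.2 intronic reads in V6.5. As scaled within each line's own tables, exonic reads were higher and intronic reads lower in TFC in every library. There the median of all genes was 263 exonic reads per kb in TFC and 196 in V6.5, so the exonic ranges may overlap on a common scale. The difference of the relative ratio was -2.41 (SE 0.51, unadjusted p 0.000317, adjusted p 0.999914 in limma's test). The largest differences by size were less even. Among genes with at least 100 exonic reads, Galc, Agpat9, Rora, Npdc1 and Nagpa were the highest in V6.5 relative to TFC, and Engase, Zkscan6, Gpatch11, Rdh14 and Sfrp1 the lowest. Rora had 11.8, 18.6 and 2.5 intronic reads in V6.5 against 123, 145 and 352 in TFC, and a difference of 3.66 (SE 1.36). Sfrp1, a secreted inhibitor of Wnt signals, had 84.3, 0 and 0 intronic reads in TFC and 59.2, 7.74 and 9.98 in V6.5, so its value rests on few reads. The difference of Foxj2, 3.44, rested on 1 library and was -0.090 without TFC B.

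**Figure D5:**
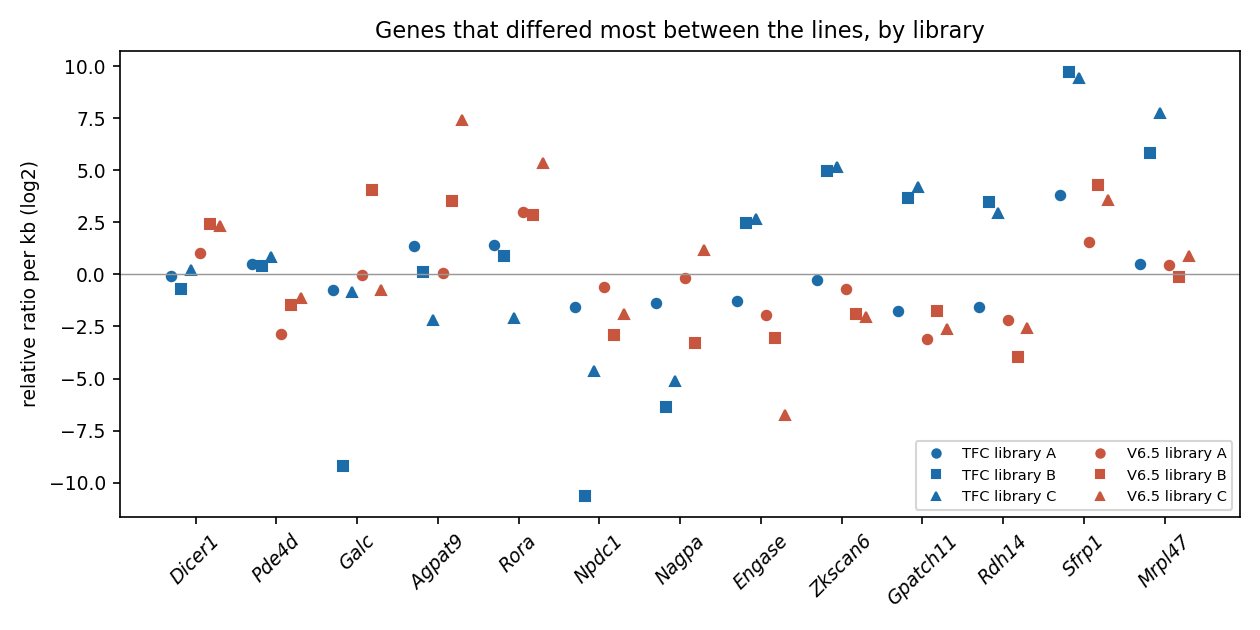
Relative ratio per kb (log2, 0 = median gene of the library) in each library of TFC (blue) and V6.5 (red) for Dicer1, Pde4d and 11 of the genes with the largest differences between the lines. For Dicer1 and Pde4d the lines did not overlap, which was not counted over all genes. For several of the others the libraries of a line lay several log2 units apart.

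Genes were left out for too few reads or for lack of introns. In TFC 10940 genes had at least 10 in both values and in V6.5 10405, 1103 passed in TFC only and 568 in V6.5 only, and 6904 in neither. The tables give an intronic length of 0 for 915 genes, among them Sox2 and Jun. Sox2, a partner of Pou5f1, had 23129 exonic reads in the mean of TFC and 7854 in that of V6.5, and no ratio can be given. A further 1062 genes had at least 10 exonic reads in both lines but under 10 intronic reads in both although they have introns. Egr1 was one of them, with 918 and 299 exonic reads against 5.0 and 1.97 intronic ones. Klf4 fell out through V6.5, where it had 1416 exonic and 6.18 intronic reads, against 6474 and 134 in TFC. Igf2 fell out through TFC, with 349 exonic and 4.23 intronic reads, against 7871 and 256 in V6.5. At the threshold itself, the 288 genes whose lowest value was 10 to 12 had a median relative ratio of -0.35, and the 317 genes whose lowest value was 8 to 10 had -0.36.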

How the data were processed

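PolyA RNA was sequenced strand-specifically by the UTP method, per the labels' protocols. TopHat2 2.0.12, DESeq and mm10 were used, per the submitters' processing notes. For the counting tool and the gene models, the sources used here give no name. The values the authors deposited are a signal, group means of normalised reads per gene, with exonic and intronic lengths.

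Each mean is a whole-number combination of 3 steps, 1 per library, and was solved for each library's reads. Of the recovered numbers 60.3 to 80.4% were even, so no counting interval is given. An intronic library was given the same letter as the exonic library with the most similar deviations from its group mean (r of 0.0898 to 0.491). For tests, the 6 exonic and the 6 intronic libraries were scaled jointly by the median of ratios, log2(value + 1) was fitted with limma 3.58.1 in R 4.3.3 (variance trend, 8 residual degrees of freedom), and exonic minus intronic contrasts were centred on the median gene and tested two-sided. The fit was also run on simulated reads, drawn with the same dispersion for every gene and separately for exons and introns. That setting differs from these libraries, so it does not show how well the fit works on them. Coordinates are from GENCODE M21, which matched 9631 of the 9837 genes by symbol. Exonic plus intronic length was within 10% of the annotated span for 82.3% of them.

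Named genes were the 10 highest and lowest per kb and 5 highest and lowest without length among genes with at least 100 in every value, the extremes and middle of 22 lists, 29 set genes and the 10 largest line differences each way. Genes named only for their call within a list were picked out after the calls were seen. Members and lists were chosen with earlier results of these data known. The list of small nucleolar RNA and noncoding hosts had 0 genes in the tables, and primed epiblast genes had a median of 0.66 over 14 genes and abundant housekeeping genes 1.45 over 27. Values of a few list members are not reported here.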

Additional observations from a re-analysis of the deposited data

How the results depend on the processing

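No paired analysis was possible because the deposited columns are group means without replicate numbers, and the library letters used as pairs below come from the data. Counts called high and low, in TFC, V6.5 and both lines, kept within 1.5 times under other pseudocounts, scalings, voom, no variance trend and pairing by library letter. With at least 100 in every value, which leaves fewer genes to test, the high counts were 386 in TFC, 399 in V6.5 and 301 in both, and 380 were low in TFC. With a term for the A libraries, 713 were low in V6.5 and 558 in both. Against 2 log2 units, 78 were high and 57 low in TFC, 92 and 52 in V6.5, and 55 and 35 in both. Leaving out 1 library gave 305 to 695 high and 219 to 580 low in TFC, 292 to 892 and 149 to 685 in V6.5, and 249 to 435 and 143 to 330 in both, and r of 0.809 to 0.918 between the lines. Without length, the ratios of Chchd3 in V6.5 (-0.092), Adk (-0.10 and -0.063), Mrps28 in TFC (-0.081) and Exoc4 (-0.71 and -0.22) turned negative and those of Srsf2 positive (1.17 and 1.29), which the construction of that ratio gives; the line difference of Foxj2 ranged from -0.090 (without TFC B) to 5.66. Depth limits genes with few intronic reads. The A libraries' likeness and lists set against genes of similar length were examined after seeing the data.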
